A study of Homo sapiens with 4 samples.

Results

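CTDSPL2 and its relatives CTDSPL, CTDSP1, CTDSP2 and CTDP1 encode phosphatases of the family that acts on the C-terminal domain (CTD) of the largest subunit of RNA polymerase II. CTDSPL2 was selected on measured values, because the brightest of its probes had the lowest log2 ratio of the FaDu miR-489 array. That rank is among the 23130 probes with both channels well above background there. The 4 relatives were taken by name. Together these are 5 of the 30982 gene names on the array, read by 10 of its 41000 probes, with 2 probes per gene and 1 spot per probe. FaDu is an established line derived from a human hypopharyngeal squamous cell carcinoma, and HSC3 is an established line from a squamous cell carcinoma of the tongue. RNA was taken 72 h after transient transfection with miR-489 or with miR-504 and labelled with Cy5. The counterpart on each array, labelled with Cy3, was RNA of that line after transfection with a control miRNA. The data are 4 arrays, 1 for each line with each miRNA, hybridised on 1 slide and scanned together (1 scan). The dyes were not swapped, and whether the 2 arrays of a line shared 1 control RNA was not stated.

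The CTD of RNA polymerase II is a tail of repeated short peptides. Kinases phosphorylate it as transcription starts and proceeds, and CTD phosphatases remove the phosphates so that the enzyme can be used again. CTDP1 is the general CTD phosphatase of this recycling. CTDSP1, CTDSP2 and CTDSPL are small CTD phosphatases, best known for helping the repressor REST to silence neuronal genes in other tissues and for removing phosphates from SMAD proteins. CTDSPL is also known for dephosphorylating the retinoblastoma protein RB1. CTDSPL2 is a longer relative of the small phosphatases, with SMAD and FOXO proteins among its reported substrates.

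The transfected miRNAs are shown because the contrast between them is the comparison made here. Capitals mark the seed, bases 2 to 8 from the 5′ end, with which a miRNA pairs to its target mRNA. The sequences are those of RefSeq on GRCh38.p14, each printed 5′ to 3′. The labels name no arm of either hairpin, so both arms listed for miR-504 are given, while for miR-489 the table used here lists the 3p arm.
hsa-miR-489-3p: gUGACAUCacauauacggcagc
hsa-miR-504-5p: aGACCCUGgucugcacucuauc
hsa-miR-504-3p: gGGAGUGCagggcaggguuuc
The seed matches in an mRNA would read GAUGUCA for miR-489-3p, CAGGGUC for miR-504-5p and GCACUCC for miR-504-3p. The 3 seeds differ from each other. Transcript sequences were not used here, so matches in the 5 genes were not searched.

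Of the 5 genes, 3 also carry a miRNA gene of the miR-26 family within their own bounds. CTDSPL (chr3:37861880-37984469) holds miR-26a-5p at chr3:37969413-37969434 on the plus strand. CTDSP2 (chr12:57819927-57846729) holds a second copy at chr12:57824658-57824679 on the minus strand. CTDSP1 (chr2:218396351-218405941) holds miR-26b-5p at chr2:218402657-218402677 on the plus strand. These are printed to show what the small phosphatase genes share and CTDSPL2 lacks.
hsa-miR-26a-5p: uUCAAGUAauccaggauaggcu
hsa-miR-26b-5p: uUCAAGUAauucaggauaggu
Both have the seed UCAAGUA, which is not the seed of miR-489-3p or of either arm of miR-504. The same table lists 0 miRNAs within CTDSPL2 (chr15:44427629-44529038) or CTDP1 (chr18:79676768-79756625). The arrays do not measure these miRNAs.

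Spot medians less their local background medians were used in both channels. A spot not marked well above background was raised to at least the lowest marked signal of its channel and array. The log2 of Cy5 over Cy3 was then shifted so that its median was 0 over probes whose Cy5 and Cy3 were both well above background, a mark set by the scanner software. A negative log2 ratio therefore means less RNA in the miRNA transfectant than in the control transfectant, relative to the middle of the array. The medians removed were between 0.45 and 0.65. Replicate spots of a probe had a pooled standard deviation (SD) between 0.0887 and 0.104 on the log2 scale, which covers technical error within an array only. With 1 array per condition no ratio has a biological replicate, the number of arrays limits the precision, and a dye effect of a probe stays in its ratio. On all 4 arrays the control signal was well above background for 5 of 5 squamous epithelium markers (KRT5, KRT14, KRT17, TP63 and SFN). It was so on none for 5 markers of other cell types (PTPRC, CD3E, PECAM1, DES and COL1A2, 0 of 5). In RNA of whole cultures, fewer cells expressing a gene and less RNA per cell cannot be told apart.

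CTDSPL2 was several-fold lower in both lines after miR-489, and by less after miR-504. In the control transfectants its brightest probe, A_32_P76060, gave background-subtracted Cy3 intensities of 699.5 and 665 on the FaDu miR-489 and miR-504 arrays, and of 599 and 833.5 on the corresponding HSC3 arrays. The Cy5 intensities were 90.5 after miR-489 and 488 after miR-504 in FaDu, and 107 and 443.5 in HSC3. The Cy5 signals after miR-489 were thus the low ones in both lines, while the 4 control signals lay close together.

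**Figure D1:**
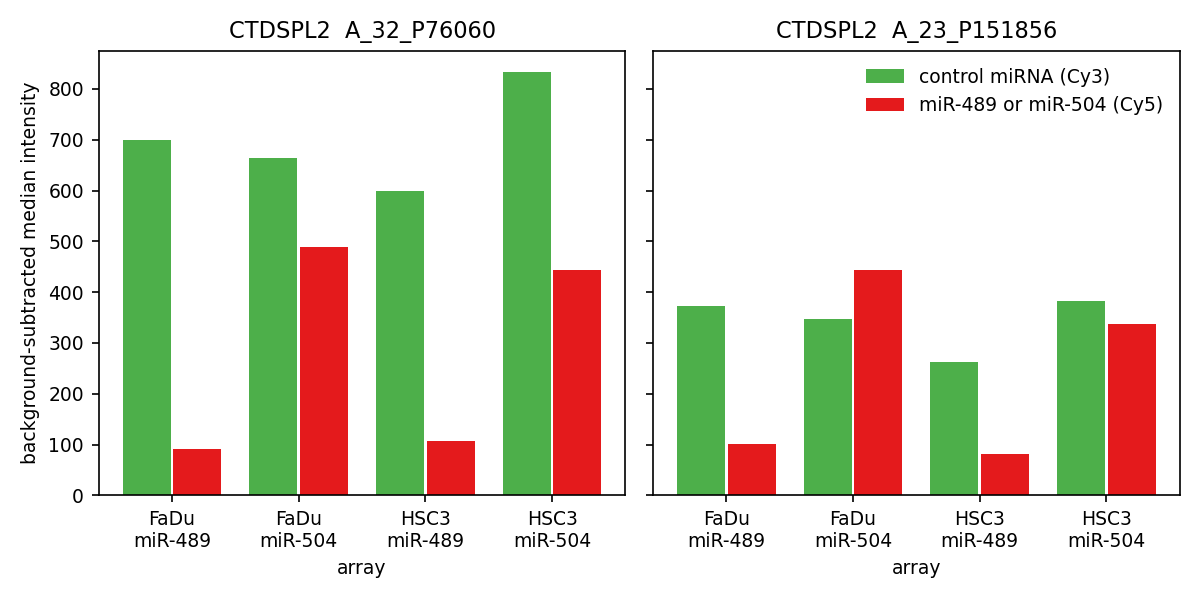
Background-subtracted median intensity (vertical axis, scanner units, not yet centred) of the 2 CTDSPL2 probes on the 4 arrays; green bars are the control transfectant (Cy3) and red bars the miR-489 or miR-504 transfectant (Cy5), 1 spot each, so there are no error bars. For both probes the red bars of the miR-489 arrays lie between 80.5 and 107 and those of the miR-504 arrays between 338 and 488.

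After centring, the log2 ratio of this probe was −3.53 on the FaDu miR-489 array, −1.10 on the FaDu miR-504 array, −3.07 on the HSC3 miR-489 array and −1.36 on the HSC3 miR-504 array. These ratios correspond to 11.6-fold, 2.14-fold, 8.40-fold and 2.56-fold lower levels than in the control. The first of them is the value on which the gene was selected and is given as a description. At that edge of the FaDu miR-489 array the next lowest values were those of PTPN11 at −3.25 and of the transcript listed as THC2278239 at −3.06. This order counts only the brightest probe of each gene, with both channels well above background. On the HSC3 miR-489 array, whose values the rule of choice did not use, the probe was the 6th lowest of 23474 probes with both channels well above background. On the miR-504 arrays it was the 791st lowest of 23168 in FaDu and the 269th lowest of 23269 in HSC3.

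The second CTDSPL2 probe, A_23_P151856, showed the same order of the arrays with smaller ratios. Its Cy3 intensities were 373, 347, 263 and 382.5 on the arrays in the order of the previous paragraph, and its Cy5 intensities were 101.5, 443.5, 80.5 and 338. The log2 ratios were −2.46 and −2.29 after miR-489 in FaDu and HSC3, and −0.30 and −0.62 after miR-504. After miR-489 both probes thus passed 2-fold in both lines, whereas after miR-504 the brightest probe alone did. In FaDu after miR-504 it no longer did so with the normexp background correction (−0.96) or without background subtraction (−0.92). The second probe read 1.23-fold lower in FaDu and 1.54-fold lower in HSC3 after miR-504. At least 2-fold lower were 8.01% of all probes whose control signal was well above background on the FaDu miR-489 array, 5.52% on the FaDu miR-504 array, 7.64% on the HSC3 miR-489 array and 4.67% on the HSC3 miR-504 array. These shares depended on the background subtraction: the 1886, 1292, 1817 and 1095 probes behind them became 579, 374, 503 and 331 with the normexp correction, and 608, 439, 547 and 321 without subtraction. They include probes whose Cy5 signal was raised to the lowest marked one. With both channels required to be well above background the counts were 1479, 1052, 1505 and 900.

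The second probe lay above the brightest on every array, by 1.07, 0.80, 0.78 and 0.73 on the log2 scale, in the order of arrays given. The distance was largest on the FaDu miR-489 array, on which the gene was selected. Both probes carry the same transcript accession (NM_016396), and in the coordinates of the array design, whose genome build is not stated, they start 1738 bases apart. A difference between the arrays of one line cancels an offset of this kind where it is constant. That was closer to the case in HSC3 (0.78 and 0.73) than in FaDu (1.07 and 0.80).

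The log2 ratio of CTDSPL2 after miR-489 minus that after miR-504 was −2.43 in FaDu and −1.71 in HSC3 with the brightest probe, that is 5.40-fold and 3.28-fold lower after miR-489. With the second probe the differences were −2.16 and −1.67, or 4.48-fold and 3.18-fold. The FaDu values include the array used for the choice. In HSC3 the 2 probes differed from each other by less than the SD between replicate spots. In the Cy5 channel alone, with each channel centred on its median, the 4 differences lay between −2.38 and −1.99. Of 20914 probes whose control signal was well above background throughout, 2.17% had a ratio at least 2-fold below that of miR-504 after miR-489 in FaDu, 1.62% in HSC3, and 163 (0.779%) in both lines. Both CTDSPL2 probes were among the latter.

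**Figure D2:**
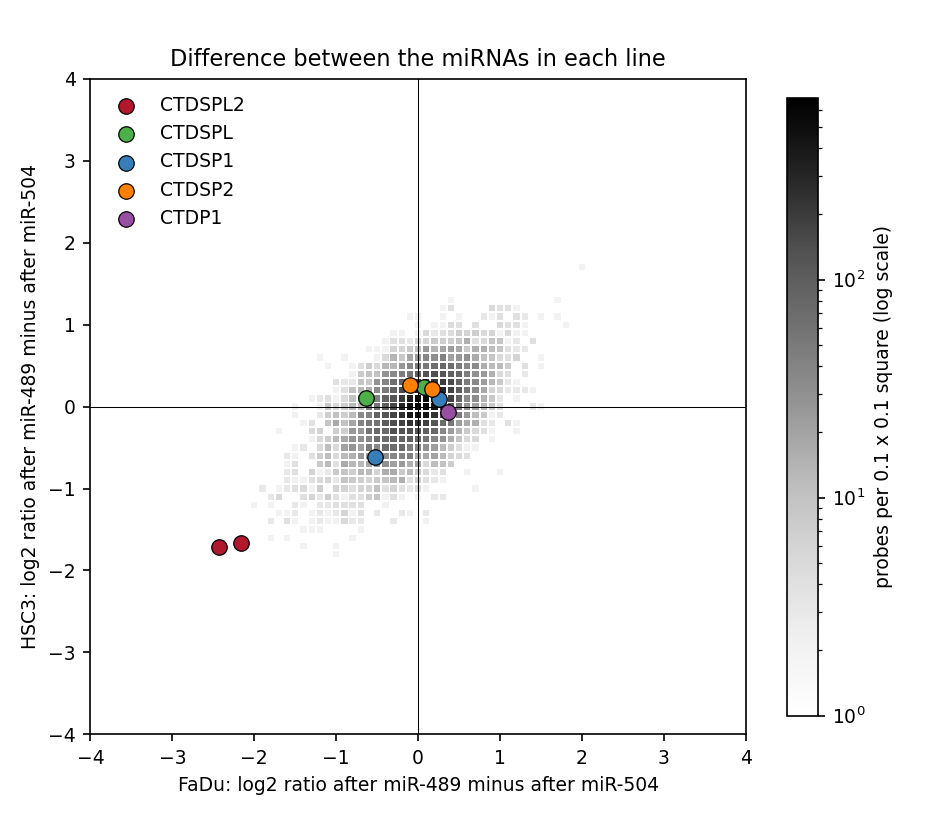
Difference in log2 ratio between miR-489 and miR-504 in FaDu (horizontal axis) and in HSC3 (vertical axis). Grey squares count the probes in each 0.1 by 0.1 area on a log scale, over 20914 probes, and coloured points are the member probes. The 2 CTDSPL2 points (red) lie at the lower left, at −2.43 and −1.71 and at −2.16 and −1.67, and the 7 points of its relatives lie between −0.64 and 0.37 on both axes.

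A test of CTDSPL2 was made without the FaDu miR-489 array, with the HSC3 miR-489 array set against the miR-504 arrays of both lines. The difference was −1.84 on the log2 scale (SE 0.170) for the brightest probe and −1.83 (SE 0.190) for the second. In this limma fit the adjusted p was 0.0965 for both, which did not pass the threshold of 0.05. It was the smallest adjusted p of the fit, shared by 172 of 20914 probes. The fit called 0 probes, and 3606 had an unadjusted p under 0.05. The lone miR-489 array was assumed to vary like the miR-504 arrays. The fit had no term for the line and 1 residual degree of freedom, the gap between FaDu and HSC3 after miR-504. Its SE therefore measures no spread between replicates of a condition. The difference also mixes the line with the miRNA. Within HSC3 alone it was −1.71 with the brightest probe and −1.67 with the second. Size and call both depended on the processing. The difference for the brightest probe was −1.38 with the normexp background correction and −1.43 without background subtraction. Passes of this probe under an alternative are not counted here, because the number of all probes passing there is not given.

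The 4 relatives showed no fall of this kind on any array. Their 8 probes gave 30 log2 ratios with both channels well above background, which lay between −0.92 and 0.66, so that 0 of 30 reached a 2-fold fall. Of all probes whose control signal was well above background, between 4.67% and 8.01% fell this far on an array. A count of 0 among 30 is near these shares. They required the control signal alone to be well above background, whereas the 30 ratios required both channels. The brightest probes of the 4 genes covered −0.51 to 0.65.

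**Figure D3:**
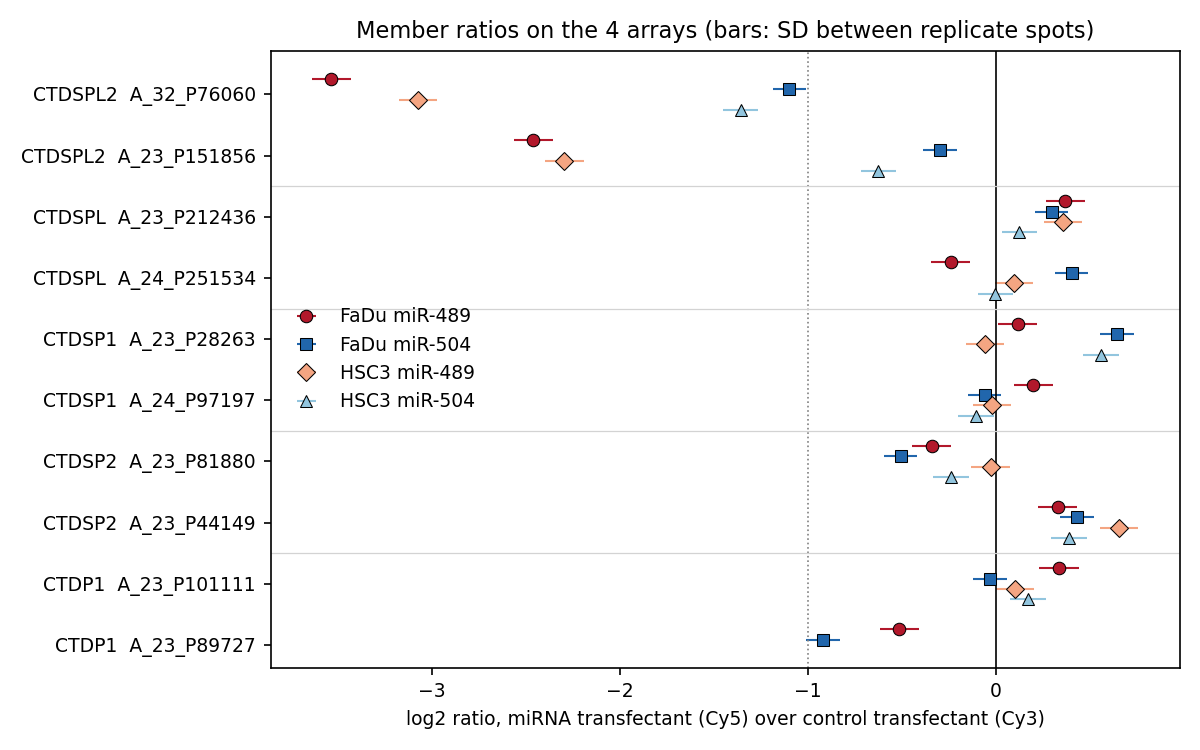
Log2 ratio of Cy5 over Cy3 (horizontal axis) for the 10 member probes on the 4 arrays, 1 spot each. Bars are 1 SD between replicate spots of other probes on the same array, the solid line marks 0 and the dotted line 2-fold lower; a CTDP1 probe is drawn on the FaDu arrays alone because its control signal was not well above background in HSC3. The miR-489 points of CTDSPL2 lie between −3.53 and −2.29, and all points of the other genes lie between −0.92 and 0.66.

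CTDSPL, the small phosphatase that acts on RB1, was a little above the middle of the arrays with its brightest probe. A_23_P212436 gave log2 ratios of 0.37 and 0.30 after miR-489 and miR-504 in FaDu and of 0.36 and 0.13 in HSC3. The difference between the miRNAs over both lines was 0.15 (SE 0.118, 95% interval −0.15 to 0.45, adjusted p = 0.556). In the Cy5 channel alone it turned direction, to −0.24 in FaDu and −0.19 in HSC3. The second probe, A_24_P251534, gave −0.24 and 0.40 in FaDu and 0.10 and 0.00 in HSC3, so that the miRNAs differed by −0.64 in one line and by 0.10 in the other (mean −0.27, SE 0.195, 95% interval −0.77 to 0.22, adjusted p = 0.525). The lines thus disagreed in direction for this probe, whereas in the Cy5 channel alone the differences were −0.75 in FaDu and −0.39 in HSC3. The brightest probe is mapped by the array design across 6737 bases of the chromosome and so lies over an exon junction, whereas the second spans 60 bases.

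CTDSP1, a small phosphatase that acts with REST, had the difference between the miRNAs nearest to the threshold. Its brightest probe, A_23_P28263, had background-subtracted Cy3 intensities between 3265 and 5251. The log2 ratios were 0.12 after miR-489 and 0.65 after miR-504 in FaDu, and −0.06 and 0.56 in HSC3. Both values after miR-504 were above both values after miR-489, but the share of all probes with such an order was not counted. The difference was −0.53 in FaDu and −0.62 in HSC3, with a mean of −0.57 (SE 0.122, 95% interval −0.88 to −0.26, adjusted p = 0.110), which did not pass the threshold. The adjusted p lay between 0.0279 and 0.693 over the alternatives and passed under 1 of them, the normexp correction followed by loess. In the Cy5 channel alone the difference was −0.27 in FaDu and −0.63 in HSC3. The second CTDSP1 probe, A_24_P97197, did not share this direction. It carries another transcript accession (NM_182642 in place of NM_021198), had Cy3 intensities between 99 and 111.5, and gave ratios of 0.20 and −0.06 in FaDu and −0.02 and −0.11 in HSC3. Its difference was 0.17 (SE 0.126, 95% interval −0.15 to 0.49, adjusted p = 0.532), and in the Cy5 channel alone 0.21 in FaDu and 0.34 in HSC3.

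CTDSP2 gave ratios on either side of 0 depending on the probe. With A_23_P81880 they were −0.34 and −0.51 after miR-489 and miR-504 in FaDu and −0.03 and −0.24 in HSC3. With A_23_P44149 they were 0.33 and 0.43 in FaDu and 0.66 and 0.39 in HSC3. The difference between the miRNAs was 0.19 with the former (SE 0.166, 95% interval −0.23 to 0.61, adjusted p = 0.610) and 0.08 with the latter (SE 0.147, 95% interval −0.29 to 0.46, adjusted p = 0.823). In the Cy5 channel alone the former gave 0.02 in FaDu and −0.48 in HSC3, and the latter −0.11 and −0.62, so that the direction in HSC3 turned. Both probes carry the accession NM_005730, and the contrast between the miRNAs gave a similar value with each although their ratios to the control had opposite signs.

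CTDP1, the general CTD phosphatase, gave ratios of 0.34 and −0.03 in FaDu and 0.10 and 0.17 in HSC3 after miR-489 and miR-504 with its brightest probe A_23_P101111. The difference was 0.15 (SE 0.143, 95% interval −0.21 to 0.51, adjusted p = 0.645), and in the Cy5 channel alone 0.47 in FaDu and 0.06 in HSC3. The second probe, A_23_P89727, was dim. Its background-subtracted Cy3 intensities were 41 and 53 on the FaDu arrays, where the log2 ratios were −0.51 and −0.92. On the HSC3 arrays its control signals of 25 and 36 were not well above background, and it was not tested.

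In the limma fit over all 4 arrays, with the lines as replicates of each miRNA, 0 of the 7 probes of the relatives that could be tested passed an adjusted p of 0.05, and 1 of them, the brightest CTDSP1 probe, had an unadjusted p under 0.05. Of all 20914 probes 1.1% were called (230 probes, of which 164 were lower after miR-489). An unadjusted p under 0.05 in this fit was found for 3869 of the 20914. Neither count among the relatives thus stands apart from that over all probes. With the line as a block, the count among the relatives was again 0. The limits of the 7 separate intervals, from the fit without the block, ran from −0.88 to 0.61, and 6 of the 7 include 0. Together they are not a joint bound. The mean differences of CTDSPL2 over both lines, −2.074 and −1.915 with its 2 probes, lie below all these limits. That is a description, since CTDSPL2 was chosen by its fall.

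**Figure D4:**
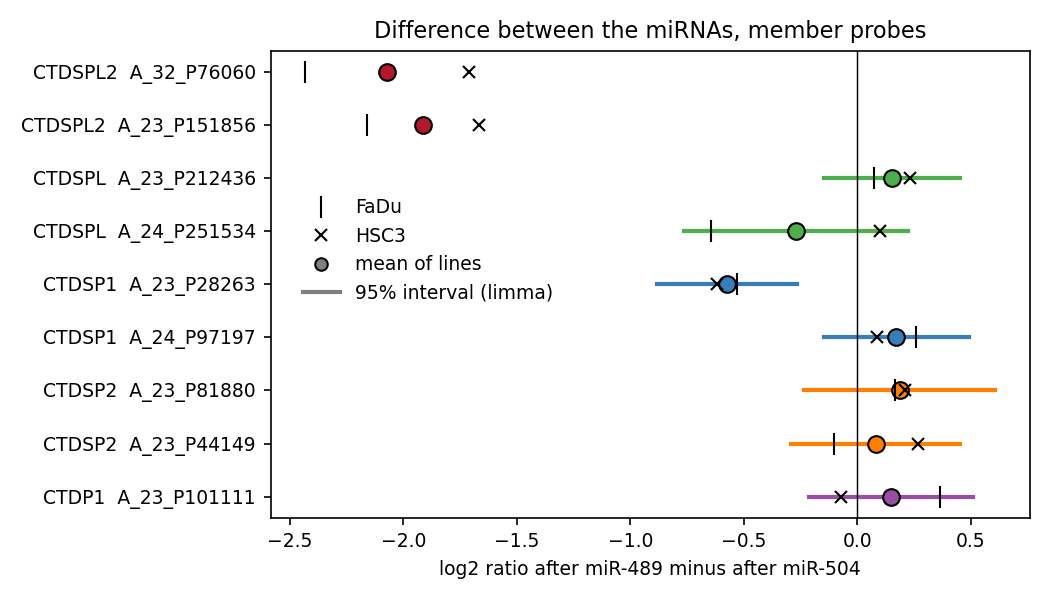
Difference in log2 ratio, miR-489 minus miR-504 (horizontal axis), for the 9 member probes that could be tested. Vertical ticks are FaDu, crosses HSC3, and circles their mean, and coloured lines are the 95% interval of the limma fit, not drawn for CTDSPL2 because it was selected on one of the arrays. Of the 7 intervals 6 include 0, and that of CTDSP1 probe A_23_P28263 runs from −0.88 to −0.26, with an adjusted p of 0.110.

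Genes that work with these phosphatases were described from 3 lists, each by the brightest probe of a gene. Of the other phosphatases of the CTD and of related fold (CTDNEP1, UBLCP1, TIMM50, SSU72 and RPAP2), 5 of 5 were tested and 0 were called in either direction. With 1.1% of all probes called, a count of 0 is near the background for lists of this size, here and in the 2 lists that follow. Their median difference between the miRNAs was 0.13, against 0.02 over all probes. The values furthest from 0 were those of SSU72, a CTD phosphatase linked to the processing of transcript ends (−0.28, adjusted p = 0.259), and of UBLCP1, a phosphatase of the nuclear proteasome (0.25, adjusted p = 0.485).

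Of 12 CTD kinases, their cyclins and partners, 11 were tested and 0 were called (1.1% of all probes), with a median difference of 0.02. The control signal of CCNT1 was not well above background on any array. CDK9, the kinase that releases paused RNA polymerase II, had log2 ratios of 0.09 and 0.60 after miR-489 and miR-504 in FaDu and of −0.19 and 0.72 in HSC3, a difference of −0.71 (SE 0.142, adjusted p = 0.0996). CDK12, a CTD kinase of elongation listed on the array as CRKRS, had a difference of 0.48 (SE 0.115, adjusted p = 0.132), from ratios of 0.05 and −0.54 in FaDu and −0.06 and −0.44 in HSC3. Neither gene passed the threshold. The lines had the same direction in both, but these genes were named for the largest mean differences of the list. That choice favours agreement between the lines, so the shared direction is no added support.

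Of 14 substrates and partners (POLR2A, GTF2F1, GTF2F2, REST, RCOR1, RB1, RBL2, SMAD1, SMAD2, SMAD3, SMAD5, SNAI1, FOXO1 and FOXO3), 14 were tested and 0 were called (1.1% of all probes), with a median difference of −0.05. REST differed by −0.36 (adjusted p = 0.183), with −0.36 in each line, and RB1 by 0.36 (adjusted p = 0.225), with 0.23 in FaDu and 0.49 in HSC3. In these 3 lists 0 of the tested genes were at least 2-fold lower on any of the 4 arrays, where 8.01%, 5.52%, 7.64% and 4.67% of all probes were, in the order given above. With the line as a block the 3 lists again had 0 calls.

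The genes with a pattern closest to CTDSPL2 were ranked by the Euclidean distance of their log2 ratios over the 4 arrays, among 15602 gene names with both channels well above background on all of them. The median distance of these names from CTDSPL2 was 5.04. PTPN11, which encodes the tyrosine phosphatase SHP-2 of growth factor signalling and is not related to the CTD phosphatases, was nearest at 0.487. Its ratios were −3.25 and −1.29 after miR-489 and miR-504 in FaDu and −3.22 and −1.04 in HSC3. It was thus below CTDSPL2 on the HSC3 miR-489 array and above it on the FaDu miR-489 array. The next were the transcript THC2278239 (distance 1.02) and RSNL2, an older symbol of CLIP4 (1.20), followed by the transcripts ENST00000376611 (1.26) and THC2303043 (1.48). For these 4 the ratio lay between −3.06 and −1.98 on the miR-489 arrays and between −1.53 and −0.93 on the miR-504 arrays. The measure includes the array on which CTDSPL2 was chosen and describes these 4 arrays only.

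The control channel also shows how the 2 lines differ in these genes without either miRNA. Each Cy3 signal was set relative to the median of its array on the log2 scale, and levels were compared within a probe only. Across all 20914 probes the Cy3 levels of the 2 HSC3 arrays and the 2 FaDu arrays did not overlap for 76.7%, and their means differed by at least 2-fold for 21.1%, so that a lack of overlap is common here. The 2 arrays of a line are not known to come from separate cultures, and no test was made.

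CTDSP2 had higher control levels in HSC3 with both probes, by over 2-fold. The centred Cy3 level of A_23_P81880 was 2.41 and 2.55 on the FaDu arrays and 3.29 and 3.93 on the HSC3 arrays, a difference of 1.13 in the means. With A_23_P44149 it was −0.76 on both FaDu arrays and 0.15 and 0.98 on the HSC3 arrays, a difference of 1.33. The 2 HSC3 controls therefore differed from each other by 0.64 and 0.83 in these probes, the miR-504 array being the higher, and a gap at least as large as the former was found for 6.04% of probes. In the Cy5 channel the level on the HSC3 miR-489 array minus that on the miR-504 array was −0.48 and −0.62. Both channels thus moved the same way, and the ratios of CTDSP2 on the HSC3 arrays lay closer together than its levels.

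The level of CTDP1 in HSC3 minus that in FaDu was −0.89 with the brightest probe (0.16 and 0.05 in FaDu, −0.69 and −0.88 in HSC3). CTDSP1 differed by −0.66 with its brightest probe (3.92 and 3.66 against 3.15 and 3.11), whereas its dim probe differed by −0.09 and overlapped between the lines. CTDSPL differed by 0.05 with overlap in one probe and by 0.45 without overlap in the other. The level of CTDSPL2 in HSC3 controls minus that in FaDu controls was −0.17 with the brightest probe and −0.40 with the second, and the lines overlapped in neither. The nearest controls of the lines were 0.03 apart in the former, where the HSC3 controls differed by 0.22 from each other, and 0.21 apart in the latter, where they differed by 0.28. With quantile scaling of the Cy3 channel, every one of these differences kept its sign, between −0.88 and 1.35.

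**Figure D5:**
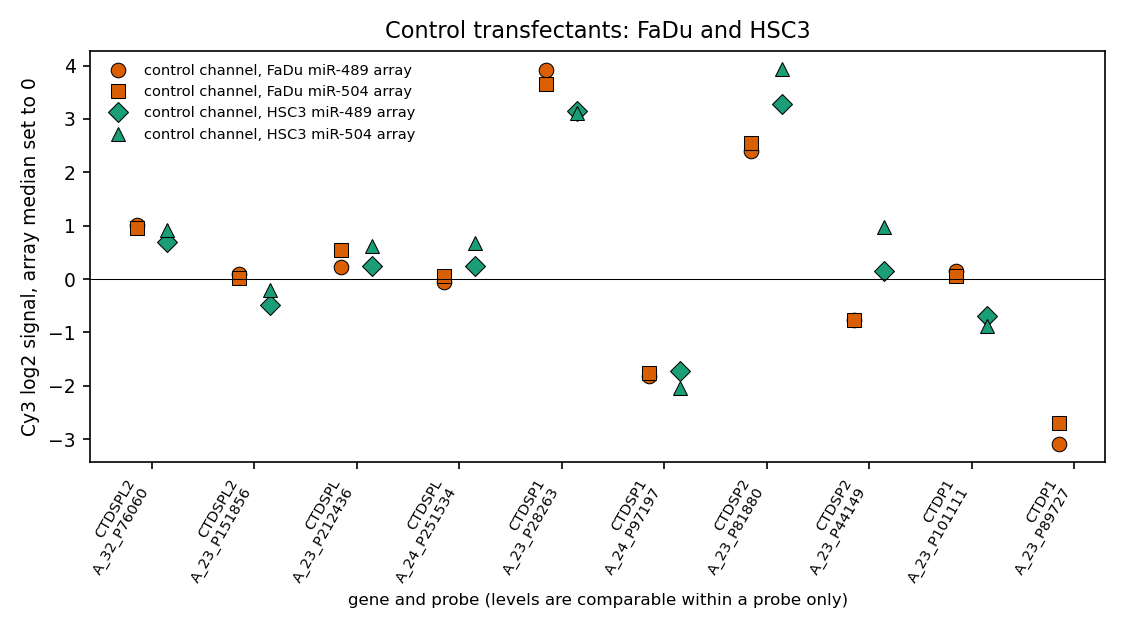
Cy3 signal of the control transfectants on the log2 scale with the median of each array set to 0 (vertical axis), for the 10 member probes (horizontal axis); orange points are FaDu arrays and green points HSC3 arrays, 1 spot each, and values not well above background are not drawn. The points of both CTDSP2 probes are higher in HSC3 (means 3.61 against 2.48 and 0.57 against −0.76), and those of the brightest CTDSPL2 probe lie between 0.70 and 1.01 in all controls.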

How the data were processed

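On each of 4 two-colour arrays a miR-489 or miR-504 transfectant of FaDu or HSC3 (Cy5) was set against its control transfectant (Cy3), grouped by the labels. The authors deposited scanner output of Agilent Feature Extraction 9.5.3.1, holding unnormalised intensity values for each spot and its local background. A log10 ratio per spot, normalised by that software, was deposited as well. The deposited processed values, matched to it spot by spot, were identical (largest difference 0). The methods of the study name another scanner and program, background-subtracted medians and a global normalisation, which was followed here. The deposited 0 or 1 marks (other values) for outliers, saturation and signal well above background served as filters. Outlier spots (118 to 137 per array) were left out, and 0 spots were saturated. Control signals were well above background for 58.2% to 59.2% of spots.

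Log2 ratios were centred on the median and replicate spots averaged. A gene outside the 5 members took its brightest probe by mean Cy3 signal. The 20914 probes whose control signal was well above background throughout entered limma, contrasting miR-489 with miR-504 with lines as replicates (2 residual degrees of freedom; Benjamini-Hochberg threshold 0.05). Since nothing states separate cultures, the p-values measure the spread between these arrays only. Named were all member probes, the 5 nearest patterns, and per list the called genes or otherwise the 2 largest differences. Members and lists were chosen with earlier results of these data known. All 10 member probe accessions matched RefSeq (GRCh38.p14). Alternatives were normexp background (offset 50), no background subtraction, mean spot intensity, loess (span 0.3), normexp with loess, the deposited ratios, the mean over probes, other filters and fold thresholds, a line block and leaving out each array. The Cy5 channel alone was added after seeing the data. Tests ran in limma 3.58.1 under R 4.3.3, and figures in matplotlib 3.10.9 under Python 3.11.15.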

Additional observations from a re-analysis of the deposited data

How the results depend on the processing

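The fall of the brightest CTDSPL2 probe kept its direction on all 4 arrays under all alternatives. The second probe entered them only through the mean of both probes. The size of the fall depended on the background subtraction (on the FaDu miR-489 array the Cy5 spot of the brightest probe read 156.5 against a background of 66). Given for miR-489 then miR-504 in FaDu, and then for the same in HSC3, the brightest CTDSPL2 probe (−3.53, −1.10, −3.07 and −1.36) gave −2.81, −0.96, −2.48 and −1.23 with normexp, and −2.70, −0.92, −2.47 and −1.16 without background subtraction. The mean of both probes was −3.00, −0.70, −2.68 and −0.99. With normexp and loess the miR-489 values were −2.88 in FaDu and −2.54 in HSC3. Loess alone gave −1.20 and −1.46 on the miR-504 arrays. The deposited ratios gave −1.25 and −1.51 there and −3.45 on the HSC3 miR-489 array, where the mean spot intensity gave −3.21. The difference between the miRNAs became −1.85 (normexp), −1.78 (no background subtraction) and −1.79 (normexp with loess) in FaDu. In HSC3 it became −1.24, −1.31 and −1.21 in the same order, −1.93 with the deposited ratios and −1.99 in the Cy5 channel alone.

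Without the FaDu miR-489 array, the difference for the brightest CTDSPL2 probe (−1.84) was −1.38 with normexp and −1.43 without background subtraction. It was −1.34 with normexp and loess and −2.06 with the deposited ratios. The number of probes called over all 4 arrays (230) was 578 with the cell line as a block, 663 with normexp, 498 without background subtraction, 350 with loess, 782 with normexp and loess, 390 with the deposited ratios, 0 without a filter on dim probes, and 0 when any 1 of the arrays was left out. These alternatives were run on the brightest probe of each relative. Of these 4, that of CTDSP1 changed its call, under normexp with loess (adjusted p = 0.0279). The cell line block is the paired analysis of this design, since each line has 1 array per miRNA, and it left 1 residual degree of freedom. The causes of these shifts were not tested.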
